A study of Mus musculus with 8 samples.

Results

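The transporter genes of the solute carrier families Slc2, Slc5, Slc16, Slc22 and Slc27, of the Slco family and of the ATP-binding cassette (ABC) families A to G were described in the mouse olfactory bulb with and without Sp8 and Sp9. Genes were taken by symbol, from families chosen with earlier results of these data known. Of the 19583 entries of the expression table, 123 belonged to these families after Slc22a18 had been left out. RNA had been sequenced from bulbs at postnatal day 30, with 4 libraries from mice that carry hGFAP-Cre and are Flox/Flox for Sp8 and for Sp9 (double mutant) and 4 from wild-type littermates, all of mixed background (C57BL/6J, 129S6 and CD1). hGFAP-Cre places Cre recombinase under the human GFAP promoter. The driver is known to act in radial glia, so that floxed alleles are lost in these cells, in astrocytes and in the neurons that descend from them. Only the labels of double mutants name Cre and floxed alleles, so that an effect of the transgene or of the floxed alleles cannot be told apart from the loss of both factors. Each library also carries a letter (A or B in double mutants, C or D in wild type, 2 libraries per letter), and nothing says whether libraries of a letter share an animal. The p-values below therefore measure the spread between libraries, which may in part be technical.

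These proteins carry small molecules across membranes. Slc2 proteins let glucose and related sugars pass down their gradient, Slc5 proteins use the sodium gradient to take up sugars, inositol, vitamins or iodide, and Slc16 proteins carry lactate and other monocarboxylates, or thyroid hormone. Slc22 and Slco proteins carry organic cations and anions, among them carnitine, drugs and hormones, and Slc27 proteins take up and activate fatty acids. Most ABC proteins use ATP to export lipids, drugs or peptides, while ABCE and ABCF proteins lack membrane domains and act at the ribosome. In brain many of these genes are known from the blood-brain barrier, the meninges and astrocytes, and others from neurons.

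Levels are in FPKM, a fragment number scaled to transcript length and library depth, so that it is a level per length. Depth lay between about 11887757 and 19041759 fragments per library, as estimated from the step of the scaled count columns. The targeted genes followed the labels, with Sp8 at 7.27 ± 0.82 FPKM in the double mutants, against 30.5 ± 1.0 FPKM in wild type (SD, n = 4) and Sp9 at 6.74 ± 0.53 and 24.1 ± 0.9 FPKM. Values of log2(FPKM + 0.5) were fitted with limma for 14349 genes, those averaging 0.5 FPKM or more, and a gene passed the test at a Benjamini-Hochberg adjusted p below 0.05 over all of these genes. Differences are double mutant minus wild type on that log2 scale, which understates the change of low genes, and errors of differences are standard errors. In bulk tissue a change in the number of cells of a type and a change in the RNA per cell cannot be told apart.

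Solute carriers of these families were mostly higher in the double mutant bulb, and ABC genes went both ways. Of the 123 transporter genes, 83 passed the filter on low values and 40 did not. Of the 83, 45 rose, 11 fell and 27 did not pass the test. Of all 14349 genes 65.3% passed the test in either direction, 28.8% were higher and 36.5% were lower. Under upper quartile scaling, which moves that balance for all genes to 35.7% higher and 26.6% lower, 57 transporter genes rose and 10 fell. The median difference of the 83 genes was 0.25, against -0.04 over all tested genes. Among the 47 tested solute carriers 32 rose and 3 fell, and among the 36 tested ABC genes 13 rose and 8 fell. The groups did not overlap for 40 transporter genes that were higher in double mutants and 11 that were lower, where 59.1% of all tested genes showed no overlap, 25.7% as higher and 33.4% as lower. On the scale of log2(FPKM + 0.5), at least a 2-fold change was reached by 3 genes that rose (Slc22a2, Slc22a6 and Abca8a) and 2 that fell (Slco5a1 and Slc16a14), where 1.69% of all tested genes rose and 2.09% fell by as much. In FPKM itself the means of Slc2a10 and Slc2a4 also rose over 2-fold, to 251% and 209% of wild type, and with a pseudocount of 0.1 their differences were 1.21 and 1.03.

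**Figure D1:**
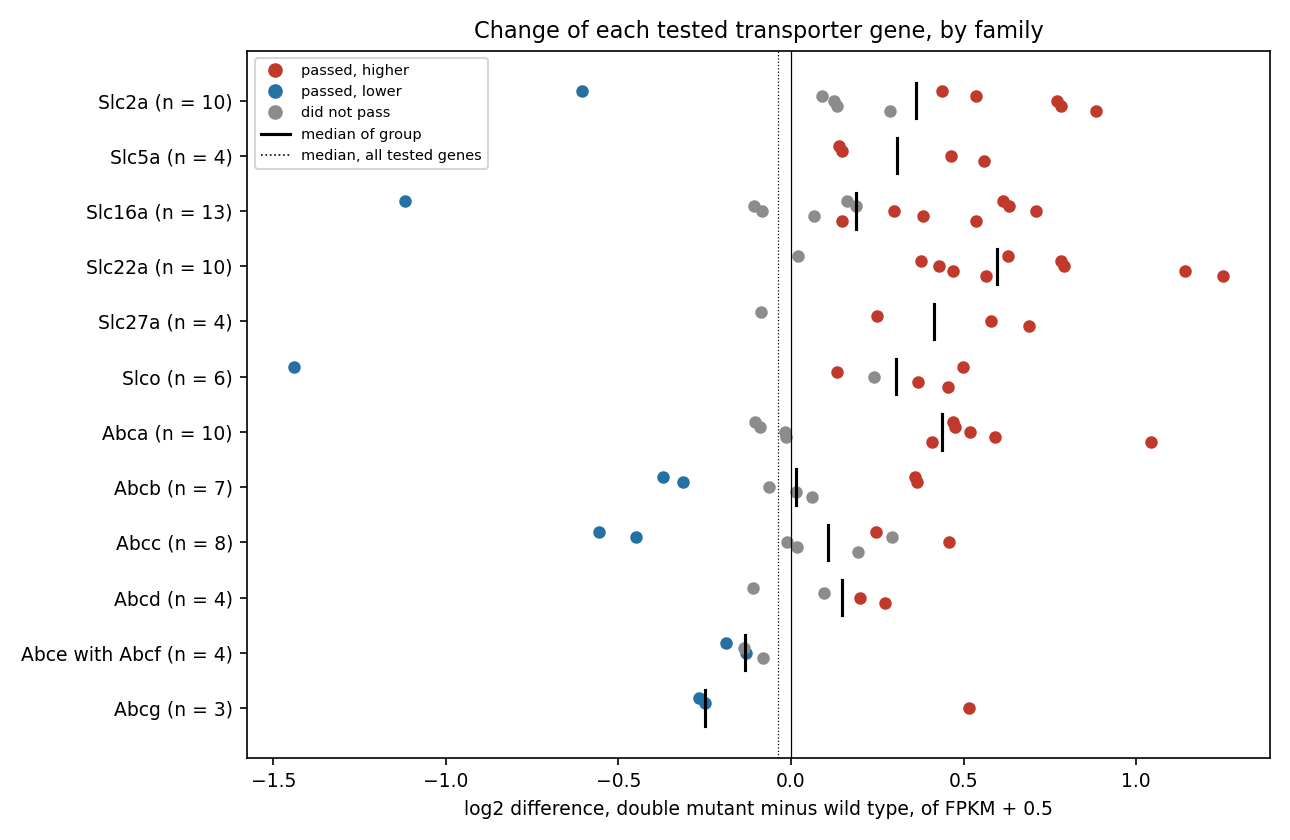
Difference of each tested transporter gene (x axis, log2 scale of FPKM + 0.5, double mutant minus wild type) in rows by family, coloured by the limma test, with the family median as a bar and the median over all tested genes as a dotted line. The Slc22a row lies farthest to the right, with 9 of 10 genes higher, and Slco5a1 is the point farthest to the left.

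The main glucose transporter gene of neurons fell, and several glucose transporter genes of lower level rose. Slc2a3 (chromosome 6, 122727809 to 122801640, minus strand), the main neuronal glucose transporter GLUT3, was at 26.8, 27.3, 30.3 and 29.3 FPKM in the double mutants (replicates 1 to 4, the order of all values below), against 42.9, 44.2, 42.4 and 44.3 FPKM in wild type. Every double mutant library lay below every wild-type library, and the gene fell to 65.4% of its wild-type mean, a difference of -0.60 ± 0.04 (limma adjusted p = 6.13e-07). Slc2a1 (chromosome 4, 119108711 to 119137983, plus strand), the glucose transporter GLUT1 of endothelium and astrocytes, had the highest wild-type level of the transporter genes after Slc22a17. It measured 65.7, 65.5, 60.2 and 65.3 FPKM in the double mutants, against 53.6, 54.8, 62.7 and 64.6 FPKM in wild type. The wild-type libraries of letter C were low and those of letter D reached the double mutant level, so the groups overlapped. The difference was 0.13 ± 0.06 and did not pass (limma adjusted p = 0.0924). It passed without wild-type replicate 4 (0.17, adjusted p = 0.0256), without letter D (0.24), under upper quartile scaling (0.21), trimmed mean scaling (0.16) and quantile normalization (0.24), and in the scaled columns (0.17).

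Of the 10 tested Slc2 genes 5 rose, 1 fell and 4 did not pass, with a median of 0.36. Slc2a13, the proton-coupled myo-inositol transporter, rose from 10.4 ± 0.5 to 14.3 ± 0.7 FPKM (SD, n = 4), a difference of 0.44 ± 0.05 (limma adjusted p = 2.21e-05). Slc2a12, which encodes GLUT12, rose by 0.77, and the groups did not overlap, with 3.28, 3.10, 3.54 and 3.54 FPKM in the double mutants, against 1.76, 1.75, 1.61 and 1.94 FPKM in wild type. Annotated exons of Slc2a12 overlap exons of Tbpl1 on the opposite strand, and reads of the overlap cannot be assigned without a stated strand setting. Slc2a4, the insulin-responsive GLUT4, measured 2.19, 1.70, 1.84 and 1.67 FPKM in the double mutants, against 0.587, 0.659, 1.16 and 1.14 FPKM in wild type. Slc2a10, the GLUT10 gene that is mutated in arterial tortuosity syndrome, measured 1.602, 1.74, 1.10 and 2.00 FPKM in the double mutants, against 0.426, 0.787, 0.551 and 0.798 FPKM in wild type. Both were low, with every double mutant library above every wild-type library, by 0.78 ± 0.15 and 0.88 ± 0.16 on the log2 scale. Without letter C the rise of Slc2a4 was 0.51. Slc2a9, a urate transporter gene named after its values were seen, rose by 0.54. The intracellular sugar transporter genes Slc2a6 and Slc2a8 and the fructose transporter gene Slc2a5 are the other genes of the family that did not pass.

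Few sodium-coupled Slc5 carriers were expressed in the bulb. Of 11 genes 4 passed the filter, and all 4 rose, with a median of 0.31. The sodium-iodide symporter gene Slc5a5 rose from 3.63 ± 0.39 to 5.58 ± 0.42 FPKM (SD, n = 4) and by 0.56 ± 0.08 on the log2 scale (limma adjusted p = 0.000117), without overlap of the groups. Slc5a11, a sodium-coupled myo-inositol transporter, rose by 0.46 from a wild-type mean of 1.09 FPKM, and by 0.29 without letter D. Slc5a6, the multivitamin transporter for biotin and pantothenate, was the Slc5 gene with the highest level, at 11.8 ± 0.3 and 10.6 ± 0.5 FPKM, and rose by 0.15. It no longer passed on the means of the letters (limma adjusted p = 0.074) or without letter B or D, and its exons overlap those of Atraid on the opposite strand. Slc5a3, the other sodium-coupled myo-inositol carrier, measured 6.45, 6.26, 6.69 and 6.85 FPKM in the double mutants, against 5.71, 6.26, 5.73 and 5.95 FPKM in wild type, and the groups overlapped. Its rise was 0.14 ± 0.05 (limma adjusted p = 0.0308). That call was lost with the letter as a block (adjusted p = 0.0617), without letter B, C or D, with the replicate number as a block (adjusted p = 0.0605), without double mutant replicate 3 or 4 (0.0684 and 0.0831) and without wild-type replicate 1, 3 or 4 (between 0.0516 and 0.0766). Slc5a3 also shares exon sequence with Mrps6 on the same strand. The 3 myo-inositol carriers Slc5a3, Slc5a11 and Slc2a13 thus all rose in the fit of all 8 libraries (median 0.44). The intestinal and renal glucose cotransporter genes Slc5a1 and Slc5a2 were at or near 0, and the choline transporter gene Slc5a7 of cholinergic neurons had means of 0.101 and 0.0664 FPKM.

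**Figure D2:**
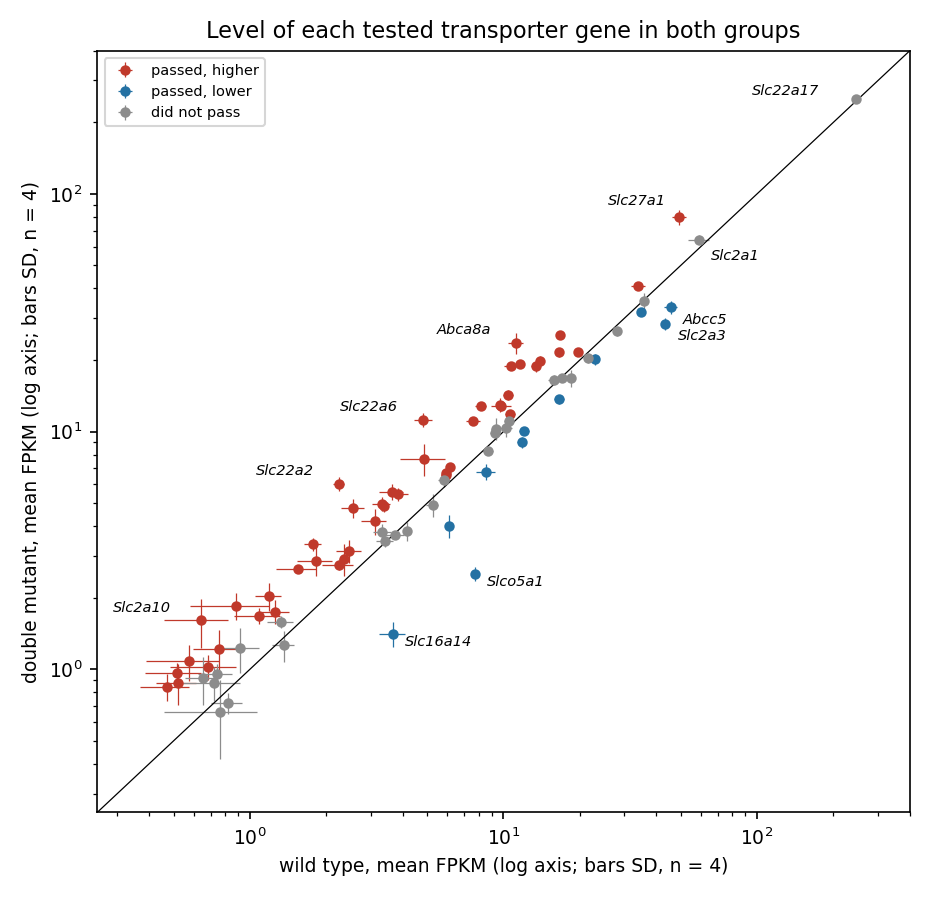
Mean level of each of the 83 tested transporter genes in wild type (x axis) and double mutant (y axis), in FPKM on log axes, with SD bars over 4 libraries and the line of equal levels. Slc22a17 near 250 FPKM lies on the line, Slco5a1 and Slc16a14 lie farthest below it and Slc22a2 and Slc22a6 farthest above it among genes over 2 FPKM in wild type.

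Among the monocarboxylate transporters the lactate carrier gene of vessels and glia rose and an orphan carrier gene fell. Slc16a1 (chromosome 3, 104638668 to 104658462, plus strand), which encodes MCT1, was at 19.2, 19.5, 18.7 and 19.7 FPKM in the double mutants, against 11.9, 11.8, 10.9 and 11.9 FPKM in wild type. The groups lay far apart relative to their spread, with a difference of 0.71 ± 0.04 (limma adjusted p = 1.3e-07). Slc16a14 (chromosome 1, 84905898 to 84935134, minus strand), whose substrates are little known, was at 1.61, 1.32, 1.23 and 1.48 FPKM in the double mutants, against 3.55, 4.17, 3.15 and 3.75 FPKM in wild type. It fell to 38.6% of its wild-type mean, the second largest fall of all transporter genes, with a difference of -1.12 ± 0.09 (limma adjusted p = 2.42e-06). Of the 13 tested Slc16 genes 7 rose, 1 fell and 5 did not pass, with a median of 0.19.

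The lactate carrier genes Slc16a7 and Slc16a3 did not pass the test. Slc16a7, the neuronal carrier MCT2, measured 3.79 ± 0.31 FPKM in the double mutants, against 3.33 ± 0.28 FPKM in wild type (SD, n = 4), a difference of 0.16 ± 0.08 that passed without wild-type replicate 1 (0.20, limma adjusted p = 0.046) and under upper quartile scaling (0.24). Slc16a3, the carrier MCT4 of glycolytic cells, stayed under 1.1 FPKM in all libraries. Slc16a12, a creatine transporter gene, rose from 1.55 ± 0.28 to 2.65 ± 0.10 FPKM, by 0.63 ± 0.10. Of genes named after their values were seen, Slc16a9 and Slc16a11 rose by 0.54 and 0.62.

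Organic cation, anion and carnitine carriers of the Slc22 family had the 2 largest rises on the log2(FPKM + 0.5) scale. Slc22a2 (chromosome 17, 12584132 to 12628488, plus strand), the organic cation transporter OCT2, was at 5.75, 5.99, 5.76 and 6.66 FPKM in the double mutants, against 2.11, 2.19, 2.32 and 2.36 FPKM in wild type. The lowest double mutant value was above the highest wild-type value by more than the range of either group, and the rise of 1.25 ± 0.06 (limma adjusted p = 6.61e-08) was the largest of all tested transporter genes. Slc22a6 (chromosome 19, 8618039 to 8628299, plus strand), the organic anion transporter OAT1, was at 11.1, 12.3, 10.3 and 11.2 FPKM in the double mutants, against 4.74, 5.21, 4.31 and 5.03 FPKM in wild type and rose by 1.14 ± 0.07 (limma adjusted p = 1.7e-07). Its neighbour Slc22a8 (chromosome 19, 8591254 to 8611835, plus strand), the organic anion transporter OAT3 of the blood-brain barrier, choroid plexus and meninges, was at 19.4, 18.6, 18.2 and 19.1 FPKM in the double mutants, against 11.1, 10.8, 9.76 and 11.1 FPKM in wild type, and rose by 0.79 ± 0.05. In none of these genes did the groups overlap.

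Of the 10 tested Slc22 genes 9 rose and 1 did not pass, with a median of 0.60. Slc22a5, the carnitine transporter OCTN2, which was named after its values were seen, rose from 8.14 ± 0.41 to 12.8 ± 0.5 FPKM (SD, n = 4), by 0.63 ± 0.05 (limma adjusted p = 1.01e-06). Slc22a4, the ergothioneine transporter OCTN1, rose by 0.78 and the orphan carrier gene Slc22a23 by 0.47. Slc22a17, a receptor gene for lipocalin 2, had the highest level of all transporter genes and measured 251, 243, 252 and 253 FPKM in the double mutants, against 243, 249.8, 249.3 and 242 FPKM in wild type. Its groups overlapped, and the difference of 0.02 ± 0.03 (limma adjusted p = 0.488) passed only under upper quartile scaling among the alternatives run (0.11). Slc22a3, the organic cation transporter OCT3, rose by 0.38 ± 0.13 (limma adjusted p = 0.0222), with 1.01, 1.19, 0.902 and 0.996 FPKM in the double mutants, against 0.640, 0.589, 0.970 and 0.531 FPKM in wild type, where replicate 3 overlapped the double mutants. That call was lost with the letter as a block (adjusted p = 0.0526), without double mutant replicate 2 (0.0635), without wild-type replicate 2 or 4 (0.0559 and 0.0596), without letter A or C, and under quantile normalization (0.248). Exons of Slc22a3 overlap those of Plg on the opposite strand.

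The sequences upstream of a few genes that rose are shown because Sp family factors are known to bind GC boxes, and because Slc22a4 and Slc22a5 are neighbours that rose together. Each is the 250 bases before the RefSeq transcription start (GRCm38.p6), outside the gene as GENCODE M21 annotates it, 5′ to 3′ on the strand of the gene, with capitals marking the GC box GGGCGG on either strand (CCGCCC on the strand shown). Slc22a6 lies at chr19:8617746-8617995 on the plus strand, Slc22a5 at chr11:53891704-53891953 and Slc22a4 at chr11:54028105-54028354 on the minus strand, and Slc16a1 at chr3:104638414-104638663 on the plus strand.
Slc22a6: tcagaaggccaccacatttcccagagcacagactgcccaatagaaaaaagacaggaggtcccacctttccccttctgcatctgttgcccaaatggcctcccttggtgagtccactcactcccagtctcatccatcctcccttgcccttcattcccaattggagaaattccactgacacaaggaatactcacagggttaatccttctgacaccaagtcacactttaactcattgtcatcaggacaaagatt
Slc22a5: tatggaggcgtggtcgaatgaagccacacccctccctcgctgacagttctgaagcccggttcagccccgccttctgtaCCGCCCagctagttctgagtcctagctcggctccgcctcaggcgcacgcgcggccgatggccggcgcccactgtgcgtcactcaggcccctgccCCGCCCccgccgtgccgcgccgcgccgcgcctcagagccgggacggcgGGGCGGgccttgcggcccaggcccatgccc
Slc22a4: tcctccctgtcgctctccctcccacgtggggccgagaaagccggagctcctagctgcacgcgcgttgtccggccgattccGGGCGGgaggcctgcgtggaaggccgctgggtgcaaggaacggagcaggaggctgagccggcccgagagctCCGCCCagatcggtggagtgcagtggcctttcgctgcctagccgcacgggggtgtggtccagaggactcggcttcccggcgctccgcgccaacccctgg
Slc16a1: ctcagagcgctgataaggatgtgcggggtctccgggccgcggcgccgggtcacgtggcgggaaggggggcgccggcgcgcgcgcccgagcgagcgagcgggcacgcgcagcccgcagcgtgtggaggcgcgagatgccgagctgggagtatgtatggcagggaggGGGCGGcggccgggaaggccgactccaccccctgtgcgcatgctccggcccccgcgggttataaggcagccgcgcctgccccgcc
The window of Slc22a6 held no GC box and 0 CpG dinucleotides. Those of Slc22a5, Slc22a4 and Slc16a1 held 3, 2 and 1 GC boxes and 30, 26 and 37 CpG dinucleotides. All 4 genes rose.

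**Figure D3:**
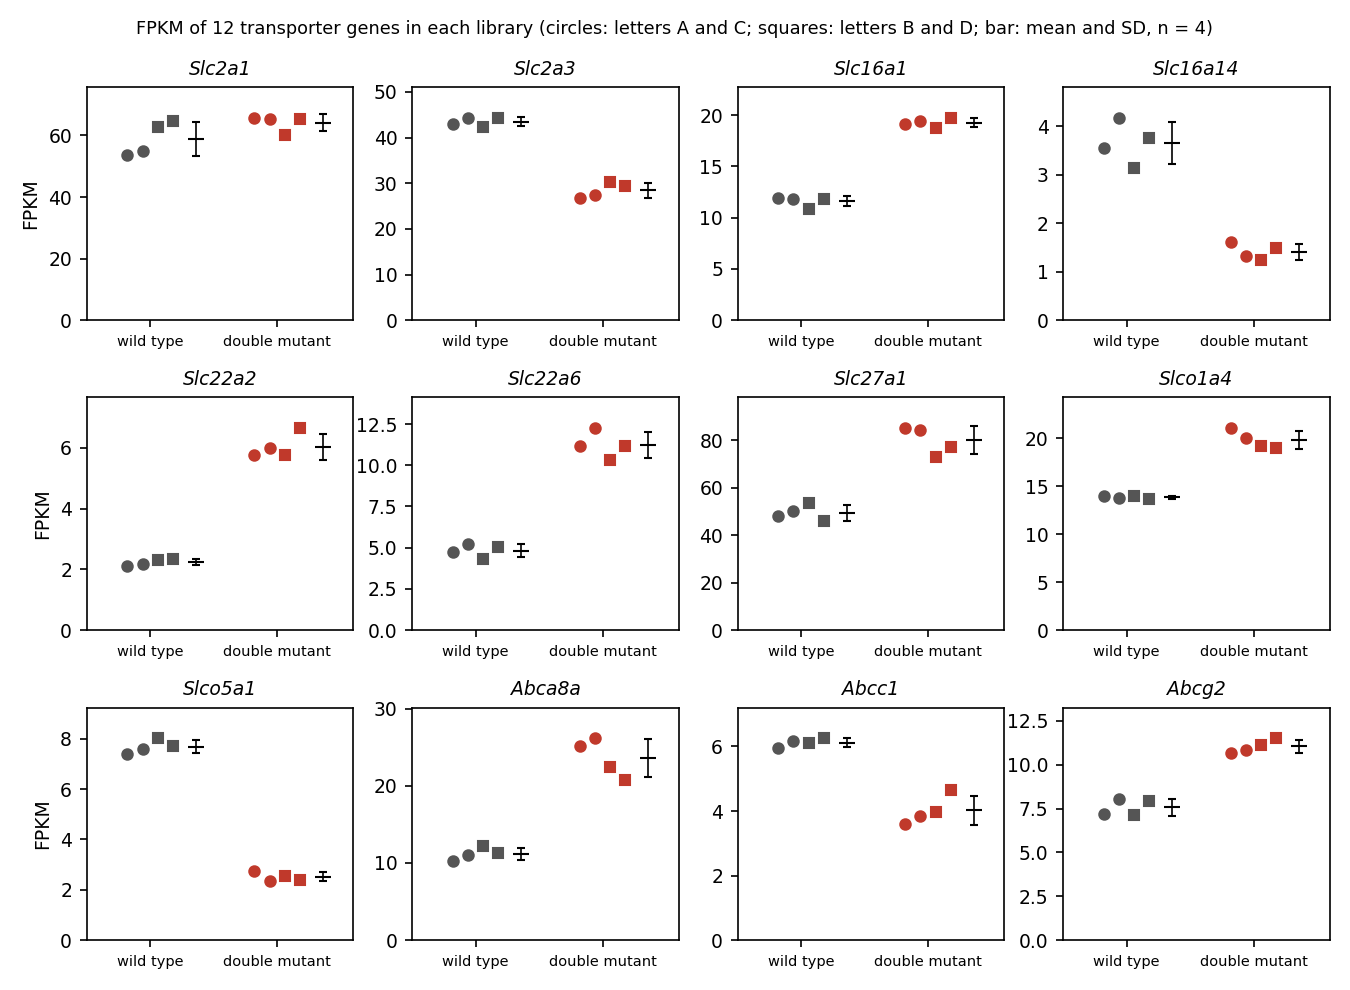
FPKM of 12 transporter genes (y axes from 0) in each of the 4 wild-type libraries (grey) and 4 double mutant libraries (red), with letters A and C as circles and B and D as squares and the mean and SD beside them. The groups overlap for Slc2a1, where the wild-type squares reach the double mutant level, and are apart for the other 11 genes.

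Fatty acid transport genes of the Slc27 family were led by Slc27a1 (chromosome 8, 71568882 to 71587302, plus strand), which encodes FATP1 and had the second highest mean level of all transporter genes in the double mutants. It measured 85.1, 84.2, 72.8 and 77.2 FPKM in the double mutants, against 47.9, 50.3, 53.3 and 45.7 FPKM in wild type. All double mutant libraries were higher, and within them those of letter B were lower than those of letter A. The rise was 0.69 ± 0.06 (limma adjusted p = 2.87e-06), and it was 0.60 without letter A. Slc27a2, which also activates very long chain fatty acids, rose by 0.58 from 1.19 ± 0.14 FPKM. Slc27a4, the carrier FATP4, measured 20.3 ± 0.9 and 21.6 ± 0.2 FPKM and did not pass (-0.09, limma adjusted p = 0.067), but it was lower and passed without double mutant replicate 3 (-0.11, adjusted p = 0.0273) and without letter B (-0.14). Slc27a3 rose by 0.25 (limma adjusted p = 0.0377) with overlapping groups. That call was lost without double mutant replicate 3 or 4 (adjusted p = 0.105 and 0.104), without any 1 of the 4 wild-type replicates (between 0.0526 and 0.088), without any letter but A, and with the letter as a block (0.0577). The difference was 0.41 without letter A and 0.09 without letter B.

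Organic anion carriers of the Slco family held the largest fall of all transporter genes. Slco5a1 (chromosome 1, 12866549 to 12992650, minus strand), an orphan member of the family, was at 2.75, 2.37, 2.57 and 2.40 FPKM in the double mutants, against 7.41, 7.59, 8.04 and 7.73 FPKM in wild type. It fell to 32.8% of its wild-type mean, a difference of -1.44 ± 0.06 (limma adjusted p = 1.44e-08), and the difference lay between -1.57 and -1.30 under all alternatives run. Slco1c1, the thyroxine carrier OATP1C1 of brain endothelium and astrocytes, measured 21.7, 22.5, 20.2 and 21.9 FPKM in the double mutants, against 17.0, 17.1, 16.2 and 16.2 FPKM in wild type and rose by 0.37 ± 0.04. Slco1a4, an organic anion carrier of brain endothelium, measured 21.1, 20.0, 19.2 and 18.9 FPKM in the double mutants, against 14.0, 13.8, 14.0 and 13.7 FPKM in wild type, and rose by 0.50 ± 0.04 (limma adjusted p = 1.83e-06). In both genes the groups did not overlap. Slco2b1 rose by 0.45, and Slco3a1, with 21.5 ± 0.6 and 19.6 ± 0.6 FPKM a level close to that of Slco1c1, rose by 0.13, a call lost on the means of the letters (limma adjusted p = 0.0677) and without letter B or D. Of 14 Slco genes 6 passed the filter, and 4 of these rose, 1 fell and Slco4a1 did not pass.

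Slco1c1 and Slco1a4 stand in 1 gene cluster on chromosome 6, and their upstream windows are shown as a contrast to those with GC boxes above. They were taken in the same way, at chr6:141524104-141524353 on the plus strand and chr6:141856221-141856470 on the minus strand.
Slco1c1: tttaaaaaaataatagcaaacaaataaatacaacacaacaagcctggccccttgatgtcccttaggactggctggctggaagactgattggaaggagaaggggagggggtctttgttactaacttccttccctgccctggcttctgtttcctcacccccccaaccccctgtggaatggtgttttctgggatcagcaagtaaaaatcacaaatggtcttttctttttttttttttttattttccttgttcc
Slco1a4: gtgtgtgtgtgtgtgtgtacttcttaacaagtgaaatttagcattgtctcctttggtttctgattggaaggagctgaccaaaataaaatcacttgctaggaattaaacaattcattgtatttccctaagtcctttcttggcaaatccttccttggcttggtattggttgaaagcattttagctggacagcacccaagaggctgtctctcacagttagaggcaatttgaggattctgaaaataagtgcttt
Neither window held a GC box or a CpG dinucleotide.

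Lipid exporters of the ABCA family rose or did not pass the test. Abca8a (chromosome 11, 110025634 to 110095978, minus strand), a lipid exporter gene, was at 25.1, 26.2, 22.4 and 20.8 FPKM in the double mutants, against 10.3, 11.0, 12.2 and 11.3 FPKM in wild type. Double mutant libraries of letter A were the highest, and all double mutant values were above all wild-type values, with a rise of 1.04 ± 0.07 (limma adjusted p = 7.18e-07) that was 0.92 without letter A. Abca1 (chromosome 4, 53030787 to 53159895, minus strand), which exports cholesterol and phospholipid to apolipoproteins, was at 26.3, 25.5, 25.7 and 24.3 FPKM in the double mutants, against 16.3, 16.9, 16.8 and 16.8 FPKM in wild type and rose by 0.59 ± 0.04 (limma adjusted p = 1.88e-07). Abca8b, a close paralog of Abca8a with which it can share reads, rose by 0.47. Abca2, a transporter of oligodendrocyte endosomes and lysosomes with the highest level of the family, measured 35.3 ± 3.0 and 35.7 ± 0.9 FPKM (SD, n = 4), and its difference of -0.02 ± 0.05 turned sign under upper quartile scaling, trimmed mean scaling and quantile normalization and was -0.12 and passed without letter B. Abca3, a lipid transporter gene best known from lung surfactant, did not pass either (-0.02, with the sign turned under the same scalings), nor did Abca7 (-0.09), which passed as lower without letter B (-0.21). Of the 10 tested ABCA genes 6 rose and 4 did not pass, with a median of 0.44.

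Other genes listed for cholesterol and phospholipid export fell or did not pass. Abcg1 (chromosome 17, 31057675 to 31117988, plus strand) was at 10.1, 10.2, 9.89 and 10.02 FPKM in the double mutants, against 12.5, 11.8, 12.4 and 11.5 FPKM in wild type and fell by 0.25 ± 0.04 (limma adjusted p = 0.000344). Abcg4 (chromosome 9, 44273188 to 44288615, minus strand), its neuronal relative, was at 13.6, 12.9, 14.0 and 14.3 FPKM in the double mutants, against 16.7, 17.4, 16.8 and 15.4 FPKM in wild type, and fell by 0.27 ± 0.05. Both falls were small but without overlap of the groups. Of the 6 genes listed for cholesterol and phospholipid export (Abca1, Abca2, Abca3, Abca7, Abcg1 and Abcg4), 1 rose, 2 fell and 3 did not pass, with a median of -0.05. Abca5, Abca8a and Abca8b, which rose, are not in that list. Abcg2 (chromosome 6, 58584523 to 58695676, plus strand), the drug exporter BCRP of brain endothelium, went the other way within its family, from 7.59 ± 0.49 to 11.1 ± 0.4 FPKM (SD, n = 4), a rise of 0.52 ± 0.05 (limma adjusted p = 9.29e-06).

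Among drug exporters of the ABCB and ABCC families some genes rose and some fell, as among all tested genes. Abcb1a (chromosome 5, 8660077 to 8748575, plus strand), the P-glycoprotein of brain endothelium, was at 13.3, 13.2, 12.1 and 12.4 FPKM in the double mutants, against 9.28, 9.83, 9.10 and 11.1 FPKM in wild type and rose by 0.37 ± 0.06 (limma adjusted p = 0.000416). Abcb1b, its close paralog, did not pass the filter and reads can be split between both. Abcc5 (chromosome 16, 20331303 to 20426394, minus strand), the multidrug resistance protein MRP5, was at 31.0, 34.3, 32.1 and 35.7 FPKM in the double mutants, against 43.1, 45.7, 44.4 and 49.5 FPKM in wild type and fell by 0.45 ± 0.05 (limma adjusted p = 3.36e-05). Abcc1 (chromosome 16, 14361558 to 14475737, plus strand), the exporter MRP1, was at 3.60, 3.85, 3.98 and 4.64 FPKM in the double mutants, against 5.94, 6.17, 6.10 and 6.27 FPKM in wild type, and fell by 0.56 ± 0.07. In both the groups were apart, and double mutant replicate 4 was the highest of its group. Abcc4, the exporter MRP4, rose by 0.25 (limma adjusted p = 0.0271) with overlapping groups. That call was lost without double mutant replicate 1 or 2 or wild-type replicate 1 or 3 (adjusted p between 0.0547 and 0.0751), with the letter as a block (0.0616), without letter A, B or C and under quantile normalization. Abcc6 rose by 0.46 from 0.753 FPKM, a call lost under quantile normalization (adjusted p = 0.0934) and without letter A (0.059). Of 8 tested ABCC genes 2 rose, 2 fell and 4 did not pass, where 28.8% of all tested genes were higher and 36.5% lower. The sulfonylurea receptor genes Abcc8 and Abcc9, subunits of ATP-sensitive potassium channels, did not pass, and neither did the genes of their channel partners Kcnj8 and Kcnj11.

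The upstream window of Abcc5, a gene that fell, is shown for comparison with those of the genes that rose. It lies at chr16:20426395-20426644 on the minus strand and was taken in the same way.
Abcc5: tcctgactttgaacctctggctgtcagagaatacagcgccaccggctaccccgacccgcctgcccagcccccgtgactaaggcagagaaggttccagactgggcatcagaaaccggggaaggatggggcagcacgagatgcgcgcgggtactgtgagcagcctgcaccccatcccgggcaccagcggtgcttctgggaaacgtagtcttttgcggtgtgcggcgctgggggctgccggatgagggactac
It held no GC box and 17 CpG dinucleotides. The box was, however, in 3 of 6 windows of transporter genes that fell and in 23 of 46 windows of those that rose. The 6 windows came from 5 genes, and Abcf2 gave overlapping windows that both held the box.

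Of 4 ABC genes of mitochondria 2 fell and the others did not pass, and of 3 of peroxisomes 1 rose. Over all tested genes 36.5% were lower and 28.8% higher, so counts of so few genes set neither list apart. Abcb6, known from porphyrin transport, fell by 0.31 ± 0.07 (limma adjusted p = 0.00299). The mitochondrial genes Abcb8 and Abcb10 did not pass, with differences of 0.06 and -0.07, although Abcb8 passed as higher under upper quartile scaling (0.14) and quantile normalization (0.13), and Abcb10 turned to 0.02 under upper quartile scaling. Abcd3 (chromosome 3, 121758774 to 121815302, minus strand), a peroxisomal importer of fatty acyl groups and bile acid precursors, was at 42.3, 40.2, 40.9 and 40.8 FPKM in the double mutants, against 32.3, 32.1, 35.2 and 36.3 FPKM in wild type and rose by 0.27 ± 0.04 (limma adjusted p = 0.000285). Abcd2, which also carries fatty acyl groups into peroxisomes, differed by -0.11 and did not pass. It passed as lower without double mutant replicate 4 (-0.17), without letter B (-0.18) and under quantile normalization (-0.17). Abcd4, which acts in the lysosomal export of vitamin B12, rose by 0.20.

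Of the 4 ABC genes of the ribosome 2 fell slightly and 2 did not pass, where 36.5% of all tested genes were lower. Abce1, the ribosome recycling factor, measured 19.4, 19.3, 20.1 and 21.6 FPKM in the double mutants, against 22.7, 23.4, 22.4 and 23.4 FPKM in wild type and fell by 0.19 ± 0.04 (limma adjusted p = 0.00253). Abcf2 had the highest level of them at 31.7 ± 0.8 and 34.8 ± 0.9 FPKM (SD, n = 4) and fell by 0.13, a call lost under upper quartile scaling (adjusted p = 0.182), quantile normalization (0.156) and on the means of the letters (0.0508). Abcf1, a translation initiation factor gene, and Abcf3 did not pass, at -0.08 and -0.14, and Abcf1 turned sign under upper quartile scaling and quantile normalization. Abcf1 passed as lower without double mutant replicate 3 (-0.11), Abcf3 without double mutant replicate 3 or 4 (-0.15 and -0.18) and with the replicate number as a block (-0.14), and both did without letter B (-0.11 and -0.23).

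Read across families, genes known from the blood-brain barrier mostly rose. Of the 10 listed, 8 rose (Slc16a1, Slc22a8, Slco1a4, Slco1c1, Slco2b1, Abcb1a, Abcg2 and Abcc4), none fell and 2, among them Slc2a1, did not pass, with a median of 0.41. Their summed level was 179 to 189.6 FPKM in the double mutants, against 139.7 to 154 FPKM in wild type. Endothelial markers moved in the same libraries. All 10 of them rose (median 0.50), with summed levels of 196 to 222 FPKM in the double mutants, against 127 to 138 FPKM in wild type. The tight junction gene Cldn5 had means of 101 and 49.1 FPKM and the endothelial adhesion gene Pecam1 6.63 and 5.83 FPKM. All 6 mural cell markers rose as well (median 0.60), with summed levels of 232 to 248.5 and 128 to 136 FPKM. Most of the mural sum came from Vtn, with means of 187 and 95.9 FPKM. All 7 astrocyte markers rose too (median 0.76), with 993 to 1022 and 601 to 674 FPKM. The part of these cell types in the rise of the transporter genes was not tested.

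**Figure D4:**
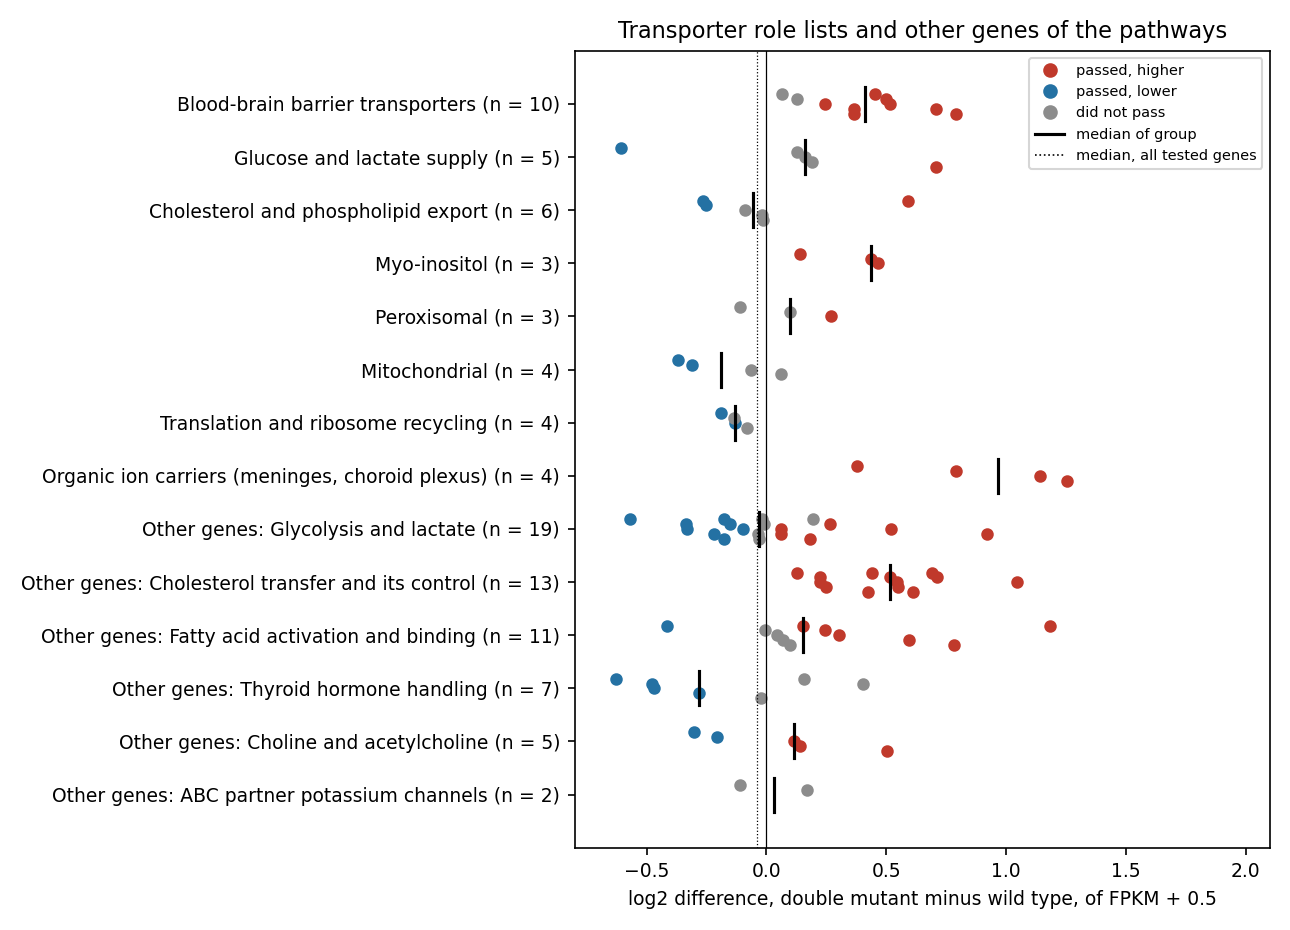
Difference of each tested gene (x axis, log2 scale of FPKM + 0.5, double mutant minus wild type) in the role lists of transporter genes and in lists of other genes of the same pathways, coloured by the limma test, with medians as bars. The 4 tested organic ion carriers of meninges and choroid plexus and the 13 cholesterol transfer genes lie to the right of 0, and the mitochondrial and ribosomal ABC genes lie mostly to the left.

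Organic ion carriers known from meninges and choroid plexus rose in the same way. Of the 5 listed, Slc22a2, Slc22a3, Slc22a6 and Slc22a8 were tested and all 4 rose (median 0.97), while Slco1a5 stayed at or under 0.361 FPKM. Their summed level was 35.6 to 38.4 FPKM in the double mutants, against 17.5 to 19.2 FPKM in wild type. All 8 markers of meninges and fibroblasts rose (median 0.90), with the collagen gene Col1a2 at means of 24.3 and 12.02 FPKM and the meningeal transporter gene Slc6a13 at 38.0 and 19.9 FPKM. Their summed level was 4012 to 4444 FPKM in the double mutants, against 2349 to 2729 FPKM in wild type. Nearly all of that sum came from Ptgds, with means of 4037 and 2524 FPKM. The part of these 8 markers in the rise of the carriers was not tested. Choroid plexus markers were low, and 1 of them rose. Kl, the klotho gene, was at 2.20, 2.34, 3.11 and 3.70 FPKM in the double mutants, against 0.984, 1.22, 1.05 and 1.11 FPKM in wild type. The groups did not overlap, and the rise was 1.05 ± 0.13 (limma adjusted p = 5.87e-05). Ttr, the transthyretin gene that defines this tissue, had means of 0.880 and 0.530 FPKM, and Folr1, Otx2 and Slc4a5 stayed below the filter. The summed level of the 6 choroid plexus markers was 4.56 to 5.68 FPKM in the double mutants, against 2.16 to 3.31 FPKM in wild type. Kl held the largest part of that sum, with means of 2.84 and 1.09 FPKM. In Ttr, Clic6, Folr1 and Otx2 the groups overlapped, and in Slc4a5, with means of 0.0771 and 0.0293 FPKM, they did not. Of the 3 tested Ttr and Clic6 did not pass. The part of these markers in the rise of the carriers was not tested.

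Markers of bulb interneurons fell in the libraries in which Slc2a3, Slco5a1, Slc16a14, Abcc1 and Abcc5 fell. All 9 of them did so (median -1.32), with summed levels of 437 to 503 FPKM in the double mutants, against 1205 to 1236 FPKM in wild type. Meis2, a transcription factor gene of granule cells, had means of 30.6 and 102 FPKM. The 6 markers of mitral and tufted cells, the projection neurons of the bulb, rose (median 0.77), with 797 to 865 FPKM in the double mutants, against 536 to 573 FPKM in wild type. All 5 markers of olfactory sensory axons and all 5 of ensheathing cells rose too (medians 0.90 and 1.06), with summed levels of 741 to 873 and 2399 to 2728 FPKM in the double mutants, against 360.1 to 525 and 1102 to 1269 FPKM in wild type. Most of the ensheathing cell sum came from Fabp7, with means of 1869 and 823 FPKM. Of 6 microglia markers 5 rose (median 0.43), with 119 to 126 and 87.7 to 95.05 FPKM, and of 6 oligodendrocyte markers 1 rose and 1 fell (median 0.02), with 1539.6 to 1958 and 1477 to 1598 FPKM. The part of these cell types in the changes of the transporter genes was not tested.

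**Figure D5:**
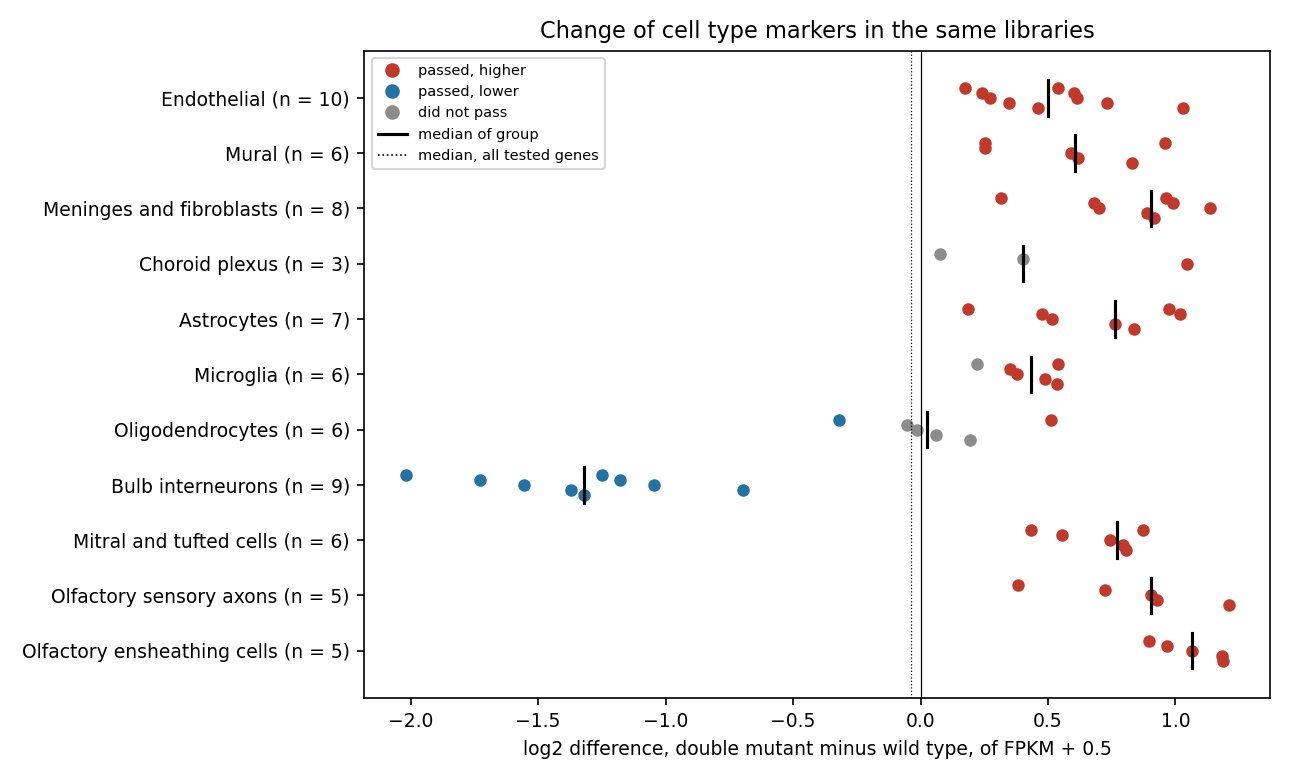
Difference of cell type markers (x axis, log2 scale of FPKM + 0.5, double mutant minus wild type) in rows by cell type, coloured by the limma test, with medians as bars. All 9 bulb interneuron markers lie to the left of 0, and the markers of endothelium, mural cells, meninges and astrocytes all lie to the right.

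Other genes of the same pathways, from lists that hold no transporter gene of these families, did not move as one. Of 19 genes of glycolysis and lactate use 6 rose, 8 fell and 5 did not pass (median -0.03). This lies near the shares over all tested genes, of which 28.8% were higher and 36.5% lower (median -0.04). The neuronal enolase gene Eno2 fell by 0.57, from 391 ± 2.9 to 263 ± 8.1 FPKM (SD, n = 4), and the phosphofructokinase gene Pfkp fell by 0.33. Emb, which encodes a chaperone of lactate carriers, rose by 0.92. Aldoa stood highest in the list at 769 and 869.5 FPKM and fell by 0.18. All 13 genes of cholesterol transfer and its control rose (median 0.52). Among them the lipid synthesis regulator gene Srebf1 rose by 1.05 and the clusterin gene Clu by 0.61. Apoe, the main lipid carrier of brain, also stood highest in its list and rose by 0.71, from 3475 to 5709.8 FPKM. Of the listed cholesterol and phospholipid exporters Abca1 rose too, Abcg1 and Abcg4 fell, and Abca2, Abca3 and Abca7 did not pass.

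Of 11 genes of fatty acid activation and binding 6 rose, 1 fell and 4 did not pass (median 0.15). Fabp7, which encodes a lipid chaperone of radial and ensheathing glia, rose by 1.18, the carnitine palmitoyltransferase gene Cpt1a by 0.78 and the acyl-CoA synthetase gene Acsbg1 by 0.59. Of 7 tested thyroid hormone genes 4 fell and 3 did not pass (median -0.28), with the hormone receptor gene Thra down from 179.6 ± 3.7 to 116 ± 6.4 FPKM (SD, n = 4) and the hormone-induced genes Klf9 and Hr at -0.47 and -0.48 on the log2 scale. Of 5 tested choline genes 3 rose and 2 fell, with the choline transporter gene Slc44a1 at 0.50, the acetylcholinesterase gene Ache at -0.30 and the choline kinase gene Chka at -0.20.

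Several groups of neighbouring transporter genes rose together. Of the 123 genes 53 lay within 500 kb of another one, in 18 groups. On chromosome 11, between 109450855 and 110337716, Abca5, Abca6, Abca8a, Abca8b and Abca9 all rose, by 0.41, 0.47, 1.04, 0.47 and 0.52, and Slc16a6 beside them by 0.15. These ABCA genes are close paralogs, so reads can be split between them. The call of Abca6 was lost under quantile normalization (limma adjusted p = 0.0652), and that of Slc16a6 with the letter as a block (0.0627), without letter A, C or D, without double mutant replicate 1 or 2 (0.065 and 0.0918) and without wild-type replicate 1, 2 or 3 (between 0.0563 and 0.0824). Also on chromosome 11, between 53864542 and 54028090, the carnitine and ergothioneine carrier genes Slc22a5, Slc22a21 and Slc22a4 rose by 0.63, 0.56 and 0.78. Between 69942539 and 70221064 of the same chromosome Slc2a4, Slc16a11 and Slc16a13 rose by 0.78, 0.62 and 0.38, the last without the call when letter B was left out (adjusted p = 0.0644). On chromosome 16, between 20331303 and 20561379, Abcc5 fell and its neighbour Abcf3 did not pass. Coordinates are from GENCODE M21 on GRCm38, and genes of this paragraph that no rule had named were chosen after their values were seen.

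The GC box was also counted in the upstream windows of all transporter genes. Promoters of 94 of the 123 genes were in the RefSeq table, with 109 starts. The box was found in 41 of 74 windows of tested transporter genes (55.4%), in 56.3% of the 13638 windows of all tested genes and in 32.7% of all 32851 windows of 250 bases. It was in 23 of 46 windows of genes that rose (50%), 3 of 6 windows of genes that fell (50%) and 15 of 22 windows of genes that did not pass (68.2%). A match of these letters is a description and not a bound site, and windows of 1 gene are not independent. Unlike the windows printed above, some counted windows overlap their gene as GENCODE M21 annotates it.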

How the data were processed

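RNA of olfactory bulbs from 4 double mutant and 4 wild-type libraries was measured at postnatal day 30. FPKM values were deposited by the authors in 1 table of 19583 entries. TopHat, Cufflinks 2.1.1 and, as the build, GRCm38.p4 stand in the submitters' processing notes, with no role. Which annotation, strand setting and filters were used is not stated there. For every library the authors also deposited a scaled signal under a header that says count, in which 98.4% to 98.6% of values up to 400 were whole multiples, within 0.05, of 1 step per library. It was not used as a count, and served for depth and 1 alternative (log2 of the signal + 10). Values of log2(FPKM + 0.5) entered limma 3.58.1 (R 4.3.3) with the group as the only term and a mean-dependent prior variance, two-sided, for 14349 genes, those averaging 0.5 FPKM or more. In simulated data of these 14349 genes, 100 genes were changed by 0.5 and 100 by 1 on the log2 scale, up or down. Of these changes 87% and 97% were recovered, and 9 unchanged genes passed. The simulated noise was independent between libraries, whereas libraries of a letter may be alike, and in the data 65.3% of genes passed. Recovery and false calls in the data may therefore differ. Python 3.11.15, pandas 2.3.3 and matplotlib 3.10.9 were used for the rest.

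The gene set and all lists were chosen with earlier results of these data known, so no list is independent evidence of its direction. Transporter genes were named if they were among the 2 with the highest level or the 3 with the smallest p of their family, among the 10 largest changes in a direction (called, without overlap, at least 1 FPKM in the higher group) or in a role list. Of each list of other pathway genes the 3 with the smallest p and the one with the highest level were named. Patterns over the 8 libraries were not correlated between genes, because the groups form separate clusters. Alternatives were another pseudocount (0.1 or 1), no filter or a filter at 2 FPKM, upper quartile, trimmed mean and quantile scaling, the scaled columns, the letter as a random block, means of the letters, the replicate number as a block and leaving out each library, and, added after the data were seen, each letter. Annotated exons of 12 of the 123 genes overlap exons of another gene of the expression table on the opposite strand. These include Abca3, Abcc9, Slc16a6, Slc2a12, Slc22a3 and Slc5a6. Overlap with genes outside the expression table was not sought. Promoter windows are from RefSeq on GRCm38.p6. Values of single genes are not reported here for a few members, which stay in the counts.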

Additional observations from a re-analysis of the deposited data

Results flagged for a closer look

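In 146 groups of 4 libraries (71 named transporter genes with Sp8 and Sp9, 2 groups each), 5 had 1 library whose gap to the nearest of the others was over 0.829 of the range of the group, where chance alone gives such a gap in about 1 of 20 groups. Slc2a1 was at 60.2 FPKM in double mutant replicate 3 and between 65.3 and 65.7 FPKM in the other double mutant libraries. Slc16a1 was at 10.9 FPKM in wild-type replicate 3 and at 11.8 to 11.9 FPKM in the other wild-type libraries. In the same library Slc16a3 was at 0.430 FPKM, against 0.789 to 0.842 FPKM in the other wild-type libraries. Slc22a23 was at 14.2 FPKM in wild-type replicate 2, against 13.1 to 13.3 FPKM in the others, and Abcc6 was at 1.57 FPKM in double mutant replicate 1, against 1.07 to 1.12 FPKM in the others. Without these libraries the calls of Slc16a1, Slc22a23 and Abcc6 were kept, and Slc2a1 and Slc16a3 did not pass, as in the fit of all libraries.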

How the results depend on the processing

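The numbers of transporter genes called higher (45) and lower (11) stayed within 1.5 times under every alternative, except that 17 were lower without letter B. Leaving out 1 library gave 42 to 44 higher and 11 to 14 lower. The median log2 change of tested transporter genes (0.25) was 0.29 and 0.21 with a pseudocount of 0.1 and 1, 0.0862 without a filter (123 genes), 0.15 with a filter at 2 FPKM (64 genes), 0.32 and 0.19 under upper quartile scaling and quantile normalization, 0.30 in the scaled columns, 0.198 to 0.256 when 1 library was left out, and 0.203 and 0.209 without letter A and C. The replicate numbers do not pair the libraries, since correlations of same-numbered deviations lay between -0.0521 and 0.0050. With a replicate block 44 genes were higher and 12 lower. Of 71 named genes 42 kept direction and call under all alternatives in which they were tested. The 6 that turned sign did not pass in the fit of all libraries. Abca2 was 0.0676 and 0.0692 under upper quartile scaling and quantile normalization, 0.0155 under trimmed mean scaling, 0.0169 in the scaled columns, -0.0584 to 0.0267 when 1 library was left out, and 0.0836 and 0.0014 without letter A and C. Abca3 was 0.0683 and 0.0621 under upper quartile scaling and quantile normalization, 0.0170 under trimmed mean scaling, 0.0266 in the scaled columns, -0.0322 to 0.0116 when 1 library was left out, and 0.0126 and 0.0049 without letter A and C. Under upper quartile scaling Abcb10 was 0.0168 and Abcf1 0.0052, and under quantile normalization Abcf1 was 0.0170 and Slc16a3 -0.0044. Abca7 was 0.0308 without letter A. The cause of these shifts was not tested. Depth limits genes with few fragments, such as Slc22a3 with 24 to 77 fragments per library. Some genes with a mean above 1 FPKM also had few. Slc2a4 had 24 to 88 and Slc2a10 21 to 127 fragments per library, and Slc16a14 had 37 to 60 in the double mutants.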

Other observations

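Of the 40 transporter genes below the filter, none exceeded 0.692 FPKM in a library and 17 were above 0 in all libraries. When no filter was applied, limma called 4 of them, all higher in double mutants. Abcb1b, a close paralog of the P-glycoprotein gene Abcb1a, measured 0.631, 0.650, 0.692 and 0.672 FPKM in the double mutants (replicates 1 to 4), against 0.332, 0.422, 0.244 and 0.317 FPKM in wild type (0.49 on the log2 scale, limma adjusted p = 0.000412). Slco2a1, a prostaglandin carrier gene, measured 0.369, 0.404, 0.335 and 0.377 FPKM and 0.203, 0.1999, 0.229 and 0.228 FPKM (0.28, limma adjusted p = 0.00102), and Slco1a5 measured 0.335, 0.352, 0.356 and 0.361 FPKM and 0.250, 0.0978, 0.168 and 0.185 FPKM (0.34, limma adjusted p = 0.00297). In these genes the groups did not overlap. Slc27a6, a fatty acid carrier gene, had means of 0.517 and 0.323 FPKM with overlapping groups (0.32, limma adjusted p = 0.0319). These genes were named after their values were seen.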
